A study of Mus musculus with 9 samples.

Results

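The genes described here are 31 sterol and fatty acid synthesis genes, chosen by symbol from the 23951 rows of each deposited table: 5 regulators of the SREBP system, 19 genes of sterol synthesis and 7 of fatty acid synthesis. They were measured by RNA sequencing in 9 libraries of mouse jejunal crypts, 3 from control mice, 3 from Smad4 KO mice and 3 from double mutants. Control mice are labelled "control mouse" with vehicle as treatment, while the design text says that they were not injected; their alleles and the ages of the mice are not given. Smad4 KO mice were Smad4f/f;Villin-CreER(T2) and received tamoxifen on 4 consecutive days, and their crypts were taken 1 day later. The double mutants were Smad4f/f; Ex3f/+;Villin-CreER(T2), treated and collected in the same way, and carried 1 Ctnnb1 allele whose exon 3 can be removed, which stabilises beta-catenin. The Villin promoter drives the recombinase throughout the intestinal epithelium, so recombination is not limited to stem cells. Tamoxifen and the stated recombinase came only with the mutant genotypes and cannot be told apart from them.

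Cells build cholesterol from acetyl-CoA through mevalonate, farnesyl diphosphate and squalene, and build fatty acids from the same precursor through malonyl-CoA. Both branches are controlled by the SREBP transcription factors, which Scap carries from the endoplasmic reticulum to the Golgi when sterols are scarce and which the Insig proteins hold back when sterols are plentiful. In the intestine, crypt cells divide and need new membrane lipid, while the villus also absorbs sterols and fat from food.

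Levels are FPKM, fragments scaled to transcript length and library size. The first table holds the controls with Smad4 KO, the second the same controls with the double mutants, and each was scaled by itself. A control library therefore differs between tables by 1 constant factor (1.031, 1.06 and 1.043 for controls 0, 1 and 2), each mutant group is set against the controls of its own table, and the difference between the mutant groups was not tested. limma was run on log2(FPKM + 1) for genes averaging 1 FPKM or more over the 6 libraries of a table. Calls required an adjusted p below 0.05, with Benjamini-Hochberg adjustment over all such genes. Log2 fold changes are on that scale, which understates changes of genes with low values. Of the 31 genes, 30 passed the filter with Smad4 KO and 29 with the double mutants. Hmgcs1 passed in neither and Scd1 only with Smad4 KO. Exact permutation of 3 against 3 libraries cannot give a two-sided p below 0.1. The labels do not state whether each library is its own mouse, so p-values measure the spread between these libraries, which may be technical. The number of reads behind an FPKM value is unknown.

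Smad4 was at 46.1, 55.5 and 47.8 FPKM in controls 0, 1 and 2, compared with 11, 9.96 and 10.8 in Smad4 KO 0, 1 and 2, and double mutants had 11.2, 10.2 and 9.95. All 11 epithelial and crypt markers were measured in every group, with summed levels of 11509 to 28347 FPKM in controls, 5360 to 35085 in Smad4 KO and 10604 to 17460 in double mutants. Most of the highest sums came from Lyz1, also a Paneth marker (23412 FPKM in control 0 and 30008 in Smad4 KO 2). Epcam was at 685 to 959 FPKM in controls and 722 to 1037 in Smad4 KO. In Smad4 KO 0, Epcam, Cdh1 and Krt8 lay above all controls, while Olfm4, Lgr5, Ascl2, Cdx2, Lyz1 and Mmp7 lay below them. Olfm4 was at 208 FPKM there, against 585 to 1435 in controls, and Lgr5 at 2.64, against 6.04 to 8.43. Over the 11 markers the mean log2 difference from controls was -0.70, -0.06 and 0.17 in Smad4 KO 0, 1 and 2. Several libraries stood apart. The 10 fibroblast, muscle and endothelial markers summed to 69.9 FPKM in Smad4 KO 2 and 44.9 in double mutant 0, against at most 10.5 in the other mutant libraries and 2.03 in controls. The 12 villus enterocyte markers summed to 14335, 1019 and 2242 FPKM in Smad4 KO 0, 1 and 2, against 3785 to 10755 in controls. In double mutants they summed to 1097 to 2143, and limma called 11 of the 12 lower there, against 9.09% of all genes. The 7 Paneth markers were all highest in control 0 among the controls (sum 149900 FPKM, against 72873 and 53420), and summed to 9276, 65293 and 127250 FPKM in Smad4 KO 0, 1 and 2. By Xist against Y-linked transcripts, controls 0 and 1, Smad4 KO 0 and double mutant 1 were male and the other 5 libraries female. In bulk crypts, fewer cells of a type and less RNA per cell cannot be told apart.

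SREBPs bind sterol regulatory elements in promoters, usually beside NF-Y and Sp1. RefSeq promoters (GRCm38.p6, 250 bases before to 50 after each start; the authors' build was mm9) were found for 25 of the 31 genes, in 34 windows; Fdps, Fdft1, Sqle, Stard4, Scd1 and Scd2 had none. Both strands were searched, and overlapping matches were each counted. The NF-Y box CCAAT was in a window of 14 of 15 sterol synthesis genes, 4 of 5 regulators and 3 of 5 fatty acid genes. Among all 27025 genes with a promoter, 41.1% had it, and 43% of the 8783 tested genes with a promoter. A gene counted if any of its windows matched, and some genes had several windows. By window, it was in 14 of 18 sterol, 5 of 10 regulator and 3 of 6 fatty acid windows. Of all windows 37.4% had it, and 37.8% of those of tested genes. The sterol element TCACNCCAC was found only in Hmgcs1 among the 25, against 1.44% of all genes and 1.41% of tested genes. The Sp1 box GGGCGG was in 14 of 15 sterol, 5 of 5 regulator and 2 of 5 fatty acid genes, against 38.2% of all genes and 68.9% of tested genes. By window these were 15 of 18, 8 of 10 and 2 of 6, against 35.7% of all windows and 62.3% of those of tested genes. The E-box CACGTG was in 5 of the 25, against 8.09% of all genes and 12.1% of tested genes. It was in 6 of the 34 windows, against 7.15% of all windows and 10.2% of those of tested genes. These are matches of letters and not shown to be bound. Only these exact strings were searched, so a promoter without a match can still hold a variant, or an element outside its window. Shown 5′ to 3′ are the 250 bases before the start of Hmgcs1 (chr13:119690101-119690350, plus strand), the gene that holds the sterol element, and of Mvd (chr8:122443423-122443672, minus strand), Lbr (chr1:181842402-181842651, minus strand) and Insig1 (chr5:28071162-28071411, plus strand), 3 genes with high values in the mutants. Capitals mark the sterol element, CCAAT or its reverse complement ATTGG, and the E-box.
Hmgcs1: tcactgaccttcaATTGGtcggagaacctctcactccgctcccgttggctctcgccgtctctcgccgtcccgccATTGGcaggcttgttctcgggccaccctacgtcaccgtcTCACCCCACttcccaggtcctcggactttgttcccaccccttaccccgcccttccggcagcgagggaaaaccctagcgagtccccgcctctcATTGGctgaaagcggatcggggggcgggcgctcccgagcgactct
Mvd: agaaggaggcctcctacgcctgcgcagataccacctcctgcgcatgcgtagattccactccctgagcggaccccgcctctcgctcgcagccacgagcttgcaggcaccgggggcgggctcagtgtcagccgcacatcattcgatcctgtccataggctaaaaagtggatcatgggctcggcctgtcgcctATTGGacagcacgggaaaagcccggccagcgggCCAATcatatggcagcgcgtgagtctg
Lbr: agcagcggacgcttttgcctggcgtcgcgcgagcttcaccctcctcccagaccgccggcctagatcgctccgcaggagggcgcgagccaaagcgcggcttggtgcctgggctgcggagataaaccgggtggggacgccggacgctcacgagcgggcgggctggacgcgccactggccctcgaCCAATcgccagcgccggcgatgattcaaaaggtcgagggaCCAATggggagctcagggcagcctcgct
Insig1: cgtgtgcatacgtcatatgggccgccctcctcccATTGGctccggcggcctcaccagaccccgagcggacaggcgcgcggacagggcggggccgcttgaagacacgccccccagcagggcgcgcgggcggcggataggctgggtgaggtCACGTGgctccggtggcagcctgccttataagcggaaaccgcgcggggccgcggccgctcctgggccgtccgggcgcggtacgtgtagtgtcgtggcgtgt
In Hmgcs1 the sterol element TCACCCCAC began 137 bases before the start and lay between NF-Y boxes beginning 176 and 45 bases before it. Mvd had NF-Y boxes 60 and 27 bases before its start, and Lbr 68 and 28 bases before it. Insig1 had 1, at 216 bases, and an E-box nearer the start.

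In the control crypts of the first table, the carrier Stard4 (63.2 ± 5.53 FPKM), Ebp (55.4 ± 6.48) and Lbr (52.1 ± 5.56) had the highest mean levels of the 31 genes (SD, n = 3 each). Ebp differed from Lbr by less than 1 SD, so these neighbours have no clear order. The lowest above 0 were Scd1 (0.545 ± 0.468), Idi1 (1.95 ± 0.714) and Acaca (2.3 ± 0.658; SD, n = 3 each). Hmgcs1, the synthase of the step before mevalonate, was listed at 0 in all 9 libraries, although the enzymes after it were at 12.3 FPKM (Mvk), 20.8 (Pmvk) and 12.6 (Mvd) on average in controls. A listed 0 in these tables can be a failed estimate, so no level is given for Hmgcs1.

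**Figure D1:**
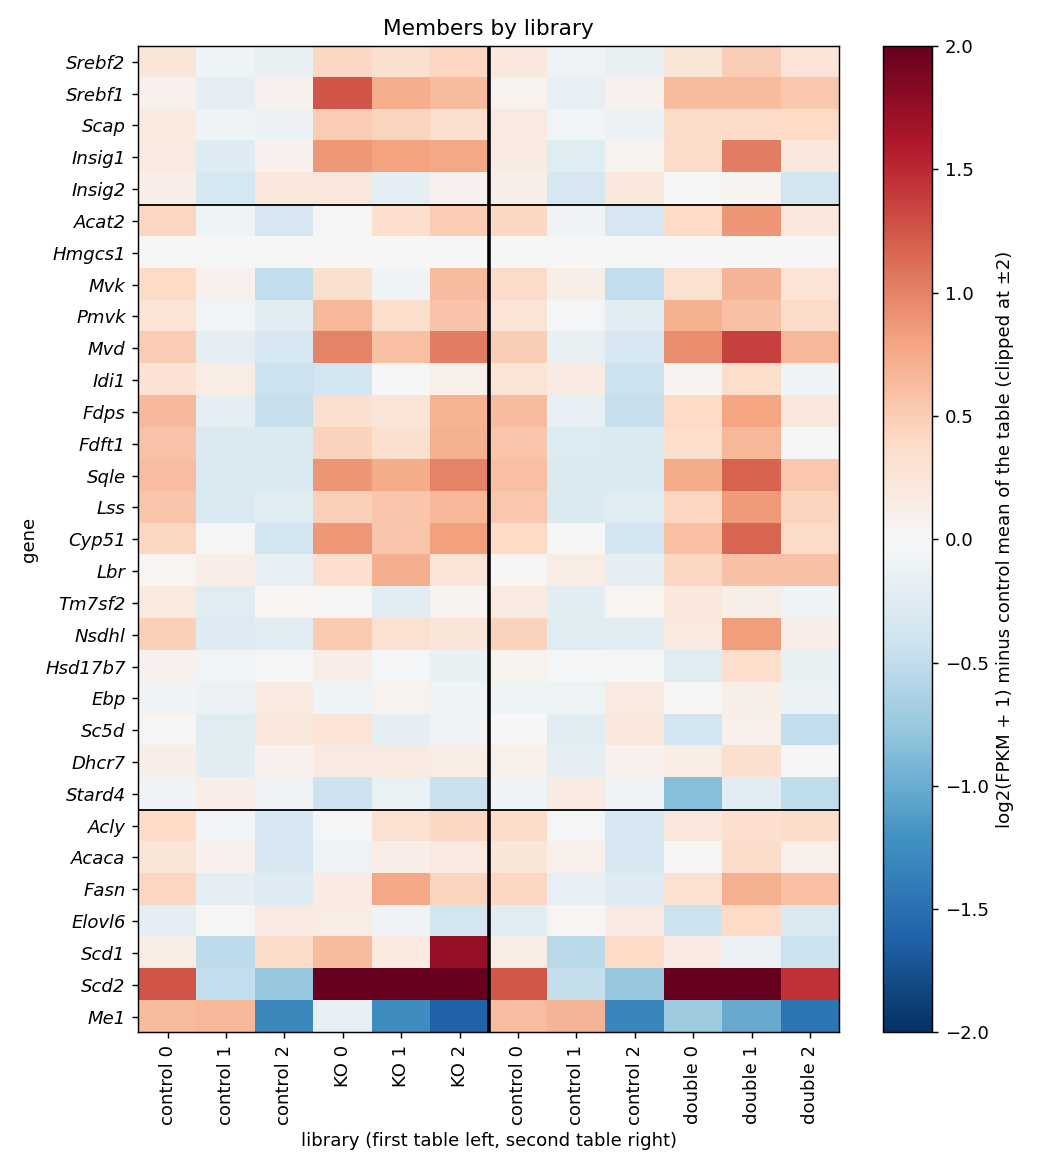
Members (rows, in the order regulators, sterol synthesis, fatty acid synthesis) in each library (columns, first table left and second right); colour is log2(FPKM + 1) minus the control mean of that table, clipped at ±2. Control 0 stands above controls 1 and 2 for many sterol genes, double mutant 1 has the strongest red of its group for most of them, and Scd2 is high in all mutant libraries; Hmgcs1 is listed at 0 throughout.

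The first comparison asked what changed on loss of Smad4. None of the 30 tested genes passed (limma, all genes: 4 of 11849 called, 0.0338%, with 0.00844% higher). At an unadjusted limma p below 0.05 there were 10 higher and 1 lower, where 9.76% and 9.34% of all genes were higher and lower at that level. All 3 Smad4 KO libraries lay above all controls for 11 of the 30 genes (14.2% of all genes) and below them for 1 (12.2%). The 30 genes had a median log2 fold change of 0.37, with 23 positive, while the median of all genes was -0.0032 and 49.6% were positive. By branch, the median was 0.42 for 5 regulators, 0.32 for 18 sterol genes and 0.23 for 7 fatty acid genes.

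The second comparison set the double mutants against controls, so it holds Smad4 loss and stabilised beta-catenin together. What beta-catenin added to Smad4 loss was not tested. Srebf1, Scap and Lbr rose in the double mutants, and no member fell (limma, adjusted p below 0.05: 3 of 29 tested, against 18.5% of all 11762 genes, 9.39% higher and 9.09% lower). The called share of the 29 was thus below that of all genes. All double mutant libraries lay above all controls for 8 of the 29 genes (21.3% of all genes) and below them for 1 (also 21.3%). The median log2 fold change was 0.38, with 23 of 29 positive, where the median of all genes was -0.0013 and 49.9% were positive. It was 0.38 for the regulators, 0.40 for 18 sterol genes and 0.23 for 6 fatty acid genes. Both comparisons use the same 3 control libraries, so their values are not independent of each other.

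**Figure D2:**
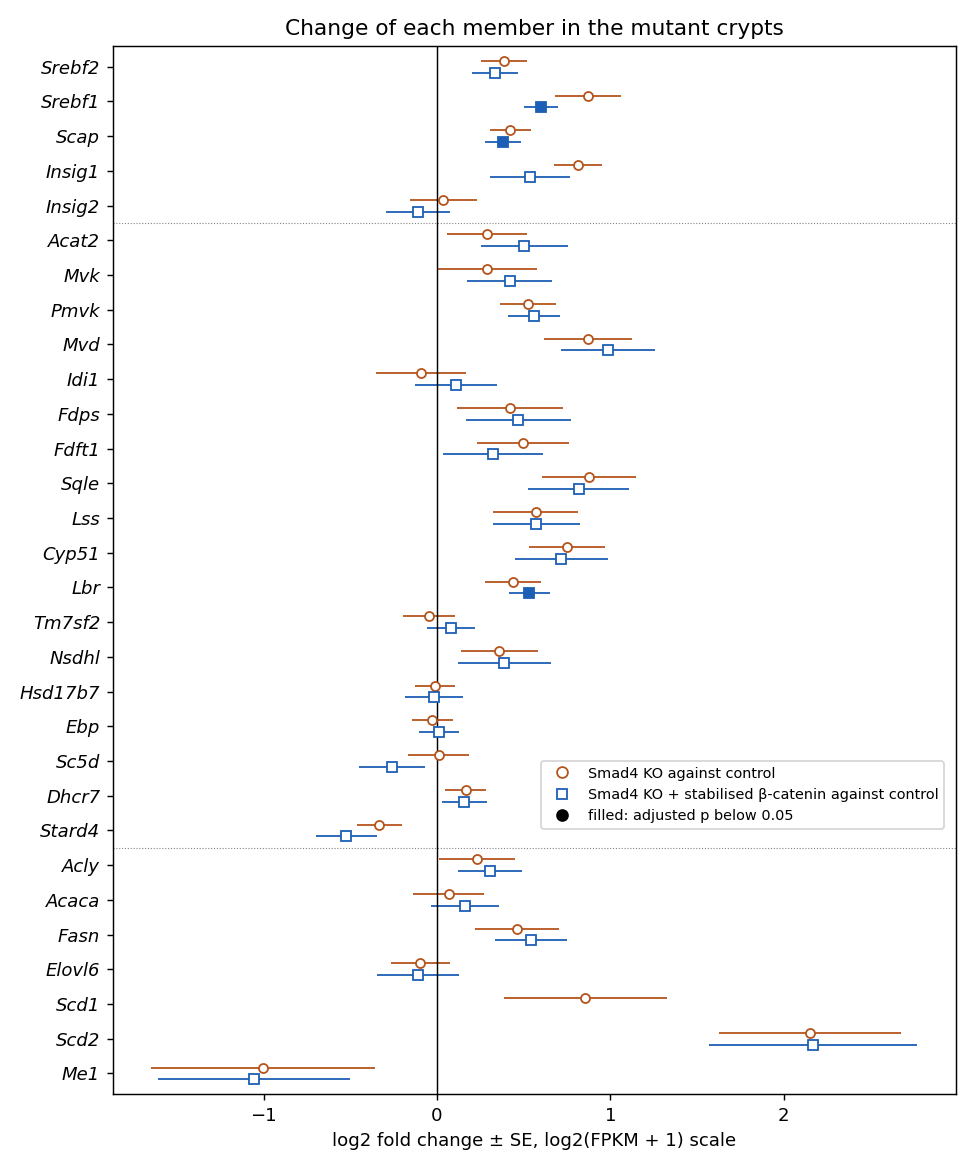
Log2 fold change with its SE for each tested member (rows; dotted lines part regulators, sterol and fatty acid synthesis) in Smad4 KO (circles) and double mutants (squares), each against the controls of its table; filled symbols passed limma. Only the double mutant values of Srebf1, Scap and Lbr are filled, and Scd2 has the largest values.

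Among the regulators, Srebf1 encodes the forms of SREBP-1, which FPKM values per gene do not separate. Srebf1 was at 20.6, 16.9 and 20.6 FPKM in controls 0, 1 and 2, compared with 47.4, 32.8 and 30.4 in Smad4 KO 0, 1 and 2. Every Smad4 KO library exceeded every control, with Smad4 KO 0 highest. The log2 fold change was 0.87 (SE 0.19, limma adjusted p = 0.13). In the second table the controls had 21.3, 17.9 and 21.5 FPKM, and double mutants 0, 1 and 2 had 31.8, 31.7 and 29.8. These 3 values lay close together and above all controls, a rise of 0.60 on the log2 scale (SE 0.10, limma adjusted p = 0.0182). The call ended without double mutant 0, 1 or 2 (limma adjusted p = 0.0674, 0.054 and 0.0791), while the log2 fold change stayed between 0.58 and 0.63.

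Srebf2 encodes SREBP-2, the main activator of cholesterol synthesis genes. Its levels were 52.3, 41.5 and 39.8 FPKM in controls, compared with 59.2, 55.6 and 59.7 in Smad4 KO (log2 fold change 0.39, SE 0.13, limma adjusted p = 0.203). Double mutants had 54.8, 65.7 and 55.6 FPKM against 53.9, 44 and 41.5 (0.33, SE 0.13, limma adjusted p = 0.129). The mutant libraries lay above the controls in each table, with control 0 just below double mutant 0. Neither difference passed.

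Scap, the escort and sterol sensor of the SREBPs, rose in the double mutants. Its levels were 26, 26.2 and 26.4 FPKM against 22.5, 19.2 and 18.1 in controls, with no overlap (log2 fold change 0.38, SE 0.10, limma adjusted p = 0.0483). Smad4 KO had 27.3, 26.2 and 24.1 FPKM against 21.9, 18.1 and 17.4, again without overlap (0.42, SE 0.12, limma adjusted p = 0.172). The double mutant call ended without control 1 or 2 (limma adjusted p = 0.105 and 0.108) or double mutant 0, 1 or 2 (0.121, 0.11 and 0.16). It also ended without a filter (0.065), without the mean-variance trend (0.0602) and when sex was added as a covariate (0.0617).

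Insig1 and Insig2 retain the SREBP-Scap complex, and Insig1 is itself a strongly sterol-responsive SREBP target. Insig1 was at 19.1, 13.7 and 17.6 FPKM in controls, compared with 31, 29.9 and 29 in Smad4 KO. The Smad4 KO values lay close together and above all controls (log2 fold change 0.81, SE 0.14, limma adjusted p = 0.111). In double mutants Insig1 was at 23, 36.2 and 20.1 FPKM against 19.7, 14.5 and 18.4, above the controls but with double mutant 1 far from the other two (0.54, SE 0.23, limma adjusted p = 0.151). Insig2 overlapped in both tables: 21.2, 15.5 and 19.2 FPKM in Smad4 KO against 19.9, 13.9 and 21.1, and 18.6, 19.6 and 14.4 in double mutants against 20.5, 14.8 and 22 (0.04 and -0.11 on the log2 scale, with limma adjusted p-values of 0.938 and 0.703).

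**Figure D3:**
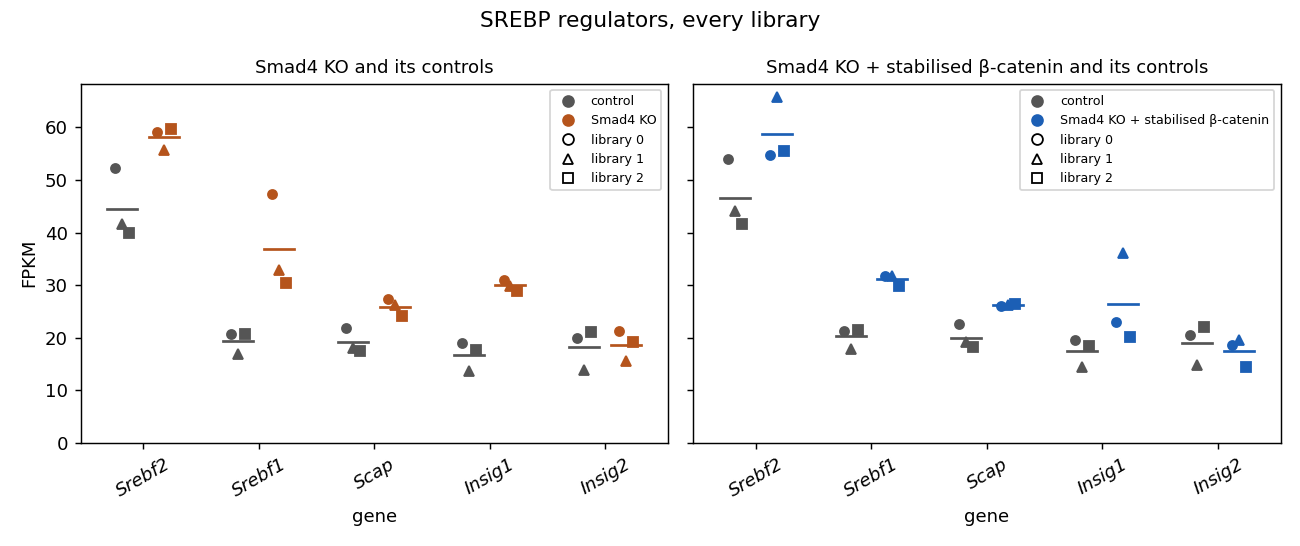
FPKM (y axis, from 0) of the 5 regulators in every library of each table; symbols mark library 0, 1 or 2 and bars the group mean. Mutant libraries sit above all controls for Srebf2, Srebf1, Scap and Insig1 in each panel, and overlap them for Insig2.

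The first steps of the sterol branch run from acetyl-CoA to farnesyl diphosphate. Mvd, which makes isopentenyl diphosphate, was at 17.7, 10.6 and 9.39 FPKM in controls, compared with 25.2, 18.9 and 25.7 in Smad4 KO (log2 fold change 0.87, SE 0.25, limma adjusted p = 0.175). Double mutants had 25, 34.2 and 20.7 FPKM against 18.3, 11.3 and 9.8 (0.98, SE 0.27, limma adjusted p = 0.052). No mutant library reached down to a control, and control 0 was the nearest. Without control 0 the double mutant difference was 1.23 and passed (limma adjusted p = 0.0297). No other run without 1 library passed, and the difference fell as low as 0.80 (limma adjusted p up to 0.124). Of the 16 alternative settings 6 passed, these runs included, while the main fit did not.

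Pmvk, the phosphomevalonate kinase before Mvd in the pathway, showed the same arrangement. Its levels were 25.1, 19.8 and 17.6 FPKM in controls, compared with 33.1, 26.6 and 31 in Smad4 KO (log2 fold change 0.53, SE 0.16, limma adjusted p = 0.184). Double mutants were at 35.8, 32.9 and 28.3 FPKM against 25.8, 21 and 18.4 (0.56, SE 0.15, limma adjusted p = 0.0507). Without control 0 this difference also passed (0.69, limma adjusted p = 0.0364). Leaving out 1 of the other libraries, it did not pass and fell as low as 0.45 (limma adjusted p up to 0.142). For Pmvk too, 6 of the 16 alternative settings passed in double mutants, these runs included.

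The other early enzymes overlapped with the controls in both tables. Mvk, the mevalonate kinase, averaged 15.1 ± 3.92 FPKM in Smad4 KO and 17.1 ± 3 in double mutants, against 12.3 ± 3.98 and 12.9 ± 4.07 in controls (SD, n = 3 each). Fdps, the farnesyl diphosphate synthase, averaged 20.4 ± 3.65 and 22.1 ± 4.7 FPKM against 15.8 ± 7.13 and 16.4 ± 7.24 (SD, n = 3 each). Acat2, the cytosolic thiolase of the first step, averaged 19.6 ± 3.32 and 24.1 ± 6.3 FPKM against 16.1 ± 4.82 and 16.8 ± 4.85 (SD, n = 3 each). Idi1, the isomerase before Fdps, stayed near 2 FPKM, with 1.21 to 2.1 in Smad4 KO, 1.83 to 2.78 in double mutants and 1.15 to 2.59 in controls over both tables. None of these 4 passed limma (adjusted p from 0.198 to 0.878).

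Squalene synthesis and its conversion to lanosterol came next. Sqle, the epoxidase that is a rate-limiting step, was at 42.5, 21.9 and 21.9 FPKM in controls, compared with 51.4, 46.7 and 55.6 in Smad4 KO, without overlap (log2 fold change 0.88, SE 0.27, limma adjusted p = 0.185). In the second table double mutants had 48.4, 65.7 and 42.1 FPKM against 43.8, 23.2 and 22.8. Control 0 exceeded double mutant 2 there (0.82, SE 0.29, limma adjusted p = 0.0984), and without control 0 the difference passed (1.12, limma adjusted p = 0.0296). Without 1 of the other libraries it did not pass and fell as low as 0.64 (limma adjusted p up to 0.221). Fdft1, the squalene synthase, averaged 15.4 ± 2.33 FPKM in Smad4 KO and 14.4 ± 3.72 in double mutants, against 11 ± 4.47 and 11.5 ± 4.52 (SD, n = 3 each). Lss, which closes the sterol rings, averaged 19.7 ± 1.29 and 20.8 ± 3.71 FPKM against 13.5 ± 5.18 and 14.1 ± 5.22 (SD, n = 3 each). Fdft1 did not pass (limma adjusted p = 0.36 and 0.452), nor did Lss (0.277 and 0.155), but Lss passed in double mutants without control 0 (0.84, limma adjusted p = 0.033).

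Of the enzymes that turn lanosterol into cholesterol, Lbr rose in the double mutants. Lbr is a sterol C14 reductase and also anchors chromatin to the nuclear lamina. Its levels were 72.9, 81.8 and 82.2 FPKM in double mutants and 55, 60.3 and 48 in controls 0, 1 and 2, with no overlap (log2 fold change 0.53, SE 0.12, limma adjusted p = 0.0312). In Smad4 KO it was at 65.4, 86.5 and 62.3 FPKM against 53.3, 56.9 and 46, again above all controls (0.44, SE 0.16, limma adjusted p = 0.233). Unlike most sterol genes, Lbr was not highest in control 0. The call in double mutants ended without control 0 or 2 (limma adjusted p = 0.0609 and 0.0645) or double mutant 0, 1 or 2 (0.0716, 0.0807 and 0.122).

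Tm7sf2, the other C14 reductase, averaged 15.5 ± 1.67 FPKM in Smad4 KO and 17.8 ± 1.88 in double mutants, against 16.2 ± 2.64 and 16.9 ± 2.53 (SD, n = 3 each). Cyp51, the lanosterol demethylase, was at 44.9, 35.6 and 43.3 FPKM in Smad4 KO against 32.3, 23.7 and 18.1, without overlap. In double mutants it was at 38.6, 57.7 and 33.1 against 33.3, 25.1 and 18.9, where control 0 exceeded double mutant 2. Neither difference of Cyp51 passed (log2 fold changes 0.75 and 0.72, SE 0.22 and 0.27, limma adjusted p = 0.177 and 0.112). Adding sex as a covariate, that in double mutants was 0.93 (limma adjusted p = 0.0314).

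Most enzymes of the last steps overlapped with the controls. Ebp, the sterol isomerase, averaged 54.2 ± 3.38 FPKM in Smad4 KO and 58.1 ± 4.67 in double mutants, against 55.4 ± 6.48 and 57.8 ± 6.62 (SD, n = 3 each). Hsd17b7, a sterol ketoreductase, averaged 8.52 ± 0.924 and 9 ± 2.33 FPKM against 8.57 ± 0.479 and 8.95 ± 0.387 (SD, n = 3 each). Sc5d, the desaturase, averaged 42 ± 7.05 and 36.6 ± 8.45 FPKM against 41.7 ± 6.83 and 43.6 ± 6.83 (SD, n = 3 each). Dhcr7, the final reductase, averaged 27.6 ± 0.282 and 28.7 ± 3.35 FPKM against 24.6 ± 3.21 and 25.7 ± 3.04, and Nsdhl, a decarboxylating dehydrogenase, 26.5 ± 2.92 and 28.9 ± 8.49 against 21 ± 6.74 and 21.9 ± 6.75 (SD, n = 3 each). Dhcr7 lay above all controls in Smad4 KO and overlapped in double mutants. Of these 5 genes and Tm7sf2, none passed limma in either comparison (adjusted p from 0.337 to 0.981).

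Stard4, a carrier that moves cholesterol between membranes, was the only sterol gene below all controls in each table. It was at 60, 69.6 and 59.9 FPKM in controls, compared with 47.2, 57.3 and 45.9 in Smad4 KO (log2 fold change -0.33, SE 0.13, limma adjusted p = 0.249). Double mutants had 36.2, 56.5 and 46.1 FPKM against 61.9, 73.7 and 62.5 (-0.52, SE 0.18, limma adjusted p = 0.0856). Library 1 was highest in each of the 3 groups, and neither difference passed.

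The controls themselves differed along the sterol branch. Control 0 was the highest control for 14 of 18 sterol genes, where it was highest for 29.4% of all genes tested in the first table. Its level was a median of 1.52 times the mean of controls 1 and 2 over the 18 genes (range 0.927 to 2.04), with Fdps (2.04), Sqle (1.94) and Fdft1 (1.92) at the top. For 12 of the 18 genes control 0 lay within or above the range of Smad4 KO. The Smad4 KO libraries lay above all controls for 6 of the 18, against 14.2% of all genes. They lay above both controls 1 and 2 for 11, against 19% of all genes. Control 0 was set aside there because it was high for these same genes. That choice raises the count of 11, which is no further evidence of a rise. The sterol median was 0.50 without control 0 and 0.20 without control 2, against 0.32 with all libraries. Control 0 was also the control with the highest Paneth markers, and control 2, the lowest in the sterol mean, was the only female control. The Paneth sums of Smad4 KO ranged from 9276 to 127250 FPKM. The part of Paneth cells in the sterol values was not tested. Adding sex as a covariate gave a sterol median of 0.44 in Smad4 KO and 0.57 in double mutants.

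The double mutants also had 1 library above the rest. Double mutant 1 was the highest of the 3 for 15 of 18 sterol genes, where it was highest for 43.6% of all genes in that table. Its mean difference from controls over these genes was 0.60 on the log2 scale, against 0.25 and 0.13 in double mutants 0 and 2. Its Paneth marker sum was the lowest of the 3 (33232 FPKM, against 91139 and 48998 in double mutants 0 and 2). By mean log2 difference over the 7 Paneth markers it was at -1.14, against 0.37 and -1.22, so double mutant 2 was lowest there. Its villus sum was 2143, close to that of double mutant 2 (2088) and above that of double mutant 0 (1097). Double mutant 1 was also the only male of the group. The part of cell types and sex in the sterol values was not tested. Without it the sterol median fell from 0.40 to 0.23, and it was 0.61 without control 0 and 0.22 without control 2. In Smad4 KO the corresponding means were 0.31, 0.24 and 0.37, closer to each other than those of the controls (0.31, -0.12 and -0.19).

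In the fatty acid branch, Scd2 had the largest difference of the 31 genes and the other genes overlapped with controls. Scd2 is a stearoyl-CoA desaturase, which makes monounsaturated fatty acids. It was at 45.8, 13 and 10.6 FPKM in controls 0, 1 and 2, compared with 87.8, 93.5 and 78.3 in Smad4 KO, a mean 3.74 times that of controls. All Smad4 KO values were above all controls and close together, while control 0 was 3.88 times the mean of the other controls. The log2 fold change was 2.15 (SE 0.52, limma adjusted p = 0.144). In the second table double mutants had 94.2, 147 and 54.6 FPKM against 47.2, 13.8 and 11.1, a mean 4.1 times that of controls. Double mutant 2 was the lowest of its group and control 0 the nearest control, and the difference of 2.17 did not pass (SE 0.60, limma adjusted p = 0.0531). Without control 0 both differences passed, at 2.78 and 2.79 (limma adjusted p = 0.0102 and 0.0219). No other run without 1 library passed. The differences fell as low as 1.77 in Smad4 KO and 1.79 in double mutants (limma adjusted p up to 0.363 and 0.135). Of the 16 alternative settings, these runs included, Scd2 passed in 1 in Smad4 KO and in 5 in double mutants. The fibroblast, muscle and endothelial markers summed to 10.5, 2.53 and 69.9 FPKM in Smad4 KO 0, 1 and 2 and to 44.9, 1.88 and 2.6 in double mutants 0, 1 and 2; their part in Scd2 was not tested.

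Scd1, the desaturase of liver and fat, was far lower than Scd2. Its controls had 0.649, 0.0337 and 0.953 FPKM, compared with 1.31, 0.714 and 3.98 in Smad4 KO. Double mutants had 0.695, 0.4 and 0.125 FPKM, against 0.669, 0.0358 and 0.994 in the controls of that table. Smad4 KO 2, the highest, was also the library with the most fibroblast, muscle and endothelial marker RNA; its part in Scd1 was not tested. The difference in Smad4 KO did not pass (log2 fold change 0.86, SE 0.47, limma adjusted p = 0.367), and without Smad4 KO 2 the gene fell under the filter. Adipocytes also express Scd1, Fasn and Elovl6. The 10 adipocyte markers summed to 21.2 to 42.2 FPKM in controls (22 to 44 in the second table), 9.04 to 41 in Smad4 KO and 11.1 to 14 in double mutants, mostly from Lipe, Cidec and Pparg. Of these markers Adipoq, Lep and Retn were listed at 0 in every mutant library, and Lep and Plin1 in every control. Plin1 was at 0.0686 FPKM in Smad4 KO 2, and Fabp4 at 0.166 and 0.36 in Smad4 KO 0 and 2. In control 2 of the first table Fabp4 was at 0.548, Adipoq at 0.0975 and Retn at 0.129 FPKM. Plin1 and Fabp4 were also above 0 in double mutant 0. The part of adipocytes in these values was not tested. Scd3 and Scd4, close relatives that can share reads with Scd1 and Scd2, were at most 0.0339 and 0.102 FPKM.

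Acly, Acaca and Fasn carry citrate to palmitate. Acly, the ATP citrate lyase, was at 47.4, 34.5 and 28.1 FPKM in controls, compared with 35.2, 44.6 and 47.9 in Smad4 KO. In double mutants it was at 43.8, 47.4 and 48.5 against 48.9, 36.5 and 29.3, with control 0 above all 3. Acaca, the acetyl-CoA carboxylase, was at 2.86, 2.46 and 1.57 FPKM in controls, 2.03, 2.56 and 2.68 in Smad4 KO, and 2.39, 3.31 and 2.6 in double mutants (controls 2.95, 2.61 and 1.64). Both genes overlapped with controls in each table (limma adjusted p from 0.279 to 0.888).

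Fasn, the fatty acid synthase, was at 28.6, 18.3 and 17.3 FPKM in controls, compared with 23.6, 36.3 and 28.8 in Smad4 KO. Double mutants had 27.3, 36.4 and 33.7 FPKM against 29.5, 19.4 and 18. In each table library 0 of the mutants lay below control 0 and above the other controls. The log2 fold changes were 0.46 (SE 0.24) and 0.54 (SE 0.21), with limma adjusted p = 0.35 and 0.115. Without control 0 that in double mutants passed (0.75, limma adjusted p = 0.0358). Leaving out 1 of the other libraries, it did not pass and fell as low as 0.41 (limma adjusted p up to 0.266).

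Elovl6 lengthens palmitate. Its levels were 27.7, 32.4 and 36.1 FPKM in controls, 35.4, 30.4 and 24.4 in Smad4 KO, and 24.5, 44.2 and 26.9 in double mutants (controls 28.6, 34.3 and 37.7). These ranges overlapped (-0.10 and -0.11 on the log2 scale, with limma adjusted p-values of 0.79 and 0.761). Me1, the malic enzyme that supplies NADPH, was at 16, 16.3 and 3.46 FPKM in controls, 8.81, 3.65 and 2.57 in Smad4 KO, and 5.92, 4.66 and 3.18 in double mutants (controls 16.5, 17.3 and 3.61). Control 2 lay among the mutant libraries, far below the other controls, and the differences did not pass (log2 fold change -1.06 in double mutants, SE 0.55, limma adjusted p = 0.219, and 0.441 in Smad4 KO). Without control 2 that in double mutants passed (-1.71, limma adjusted p = 0.0266). No other run without 1 library passed, and the difference was as weak as -0.71 (limma adjusted p up to 0.442).

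**Figure D4:**
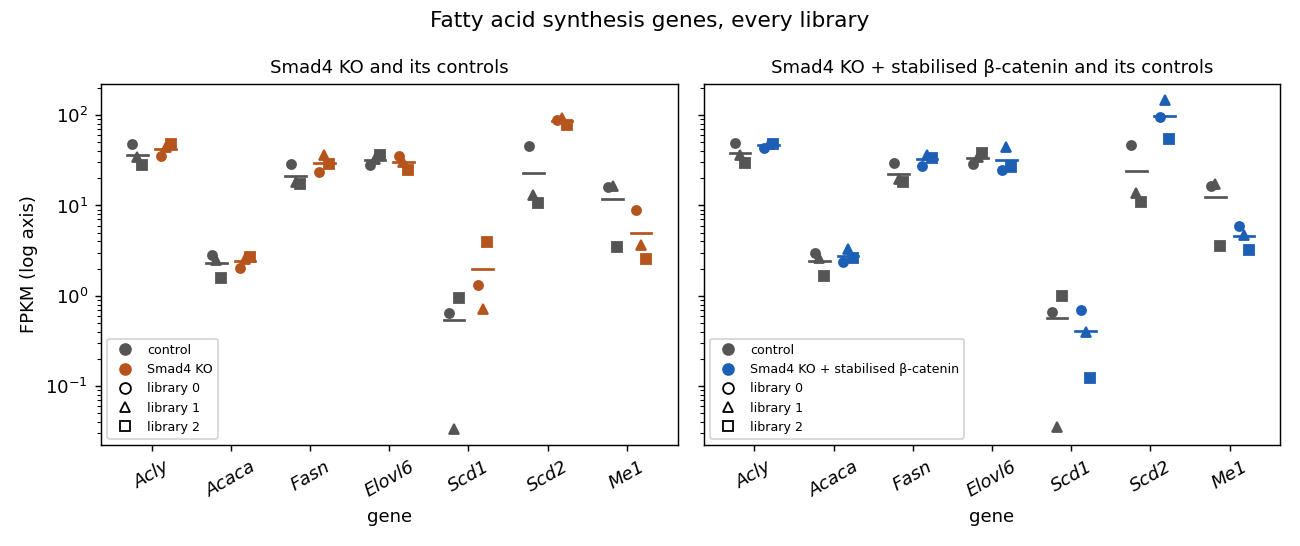
FPKM (y axis, log scale) of the 7 fatty acid synthesis genes in every library of each table; symbols mark library 0, 1 or 2 and bars the group mean. Scd2 is the one gene whose mutant libraries all lie above the controls; Scd1 is near or below 1 FPKM in most libraries, and Me1 of control 2 lies among the mutants.

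Other genes of the pathways, from lists chosen by name, were read from the same fits. Of 26 further sterol and isoprenoid genes, 25 were tested in each table. In Smad4 KO, 0 of the 25 passed limma (median -0.07). At an unadjusted limma p below 0.05, 0 were higher and 2 lower, where 9.76% and 9.34% of all genes were. In double mutants 2 were higher and 5 lower at an unadjusted limma p below 0.05, where 18.2% and 18.4% of all genes were (median -0.07). After adjustment 1 of the 25 rose and 0 fell, where 9.39% of all genes rose and 9.09% fell. That gene, Pdss1, makes the side chain of coenzyme Q, and was at 47.4, 48.6 and 50.4 FPKM against 34.2, 40 and 36.9 in controls (log2 fold change 0.39, SE 0.09, limma adjusted p = 0.0368). In Smad4 KO Pdss1 averaged 43.6 ± 9.48 FPKM against 35.4 ± 2.3 and overlapped with the controls (SD, n = 3 each).

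Of 34 further fatty acid genes, 29 were tested in each table. In Smad4 KO, 0 of the 29 passed limma (median 0.04). At an unadjusted limma p below 0.05, 5 were higher and 2 lower, where 9.76% and 9.34% of all genes were. In double mutants 6 rose and 3 fell (of 29, against 9.39% and 9.09% of all genes; median 0.11). Among the 6 with the smallest p, Ptplad1, a dehydratase of fatty acid elongation, rose to 67.4 ± 1.79 FPKM from 49.3 ± 2 (log2 fold change 0.45, limma adjusted p = 0.0222). Mid1ip1, an activator of acetyl-CoA carboxylase, rose to 42.4 ± 2.18 from 30.9 ± 1.57 (0.44, 0.0248), and Elovl5, an elongase of polyunsaturated fatty acids, to 44.3 ± 8.53 from 25.7 ± 2.05 (0.75, 0.0272). Fads3, of the fatty acid desaturase family, rose to 6.41 ± 0.724 from 3.98 ± 0.52 (0.57, 0.0343). Pnpla2, the lipase that starts the breakdown of stored fat, fell to 28.9 ± 0.759 from 39.2 ± 0.75 (-0.43, 0.0205), and Oxsm, of mitochondrial fatty acid synthesis, to 7.3 ± 0.302 from 10.5 ± 0.72 (-0.47, 0.0253; SD, n = 3 each).

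For each of these 6 genes the 3 double mutant libraries lay outside the control range, and so did the Smad4 KO libraries. The genes were picked for a small p in double mutants and the controls are shared, so this separation is no further evidence. Of all genes, 21.3% lay above and 21.3% below the controls in double mutants, and 14.2% and 12.2% in Smad4 KO. The Smad4 KO means were 59.1 FPKM for Ptplad1, 40.4 for Mid1ip1, 37.2 for Elovl5, 5.92 for Fads3, 27.4 for Pnpla2 and 7.24 for Oxsm, and none passed there (limma adjusted p from 0.158 to 0.222). All 7 calls, Pdss1 included, ended without double mutant 0, 1 or 2 (limma adjusted p from 0.0531 to 0.144). Of the 7, 2 ended without control 0 (adjusted p 0.0776 and 0.0802), 3 without control 1 (0.0568 to 0.0652) and 5 without control 2 (0.0594 to 0.0803) in limma. With all 9 libraries joined in 1 fit Oxsm, Pdss1 and Pnpla2 did not pass (limma adjusted p from 0.0545 to 0.0996). Pdss1 did not pass with sex as a covariate (limma adjusted p = 0.0642), nor Fads3 with a minimum mean of 5 FPKM (0.0576) or no filter (0.067).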

How the data were processed

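Crypts were loosened in 3 mM EDTA and strained at 70 microns, and their RNA was made into libraries with a TruSeq RNA kit that does not mark strand, per the labels' protocols. The authors deposited FPKM values in 2 tables of 6 libraries each; the submitters' processing notes list the build mm9 with Cuffdiff 2.2.1, Cuffnorm 2.2.1 and TopHat2 2.1.1. The gene models are not given in the sources used here. Whole reads could not be recovered from low FPKM values, so no count test was run.

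Groups follow the sample titles. R 4.3.3 and limma 3.58.1 were used to fit the tables one by one on log2(FPKM + 1), with a mean-variance trend, for all genes averaging 1 FPKM or more; the script was tested on simulated data. The members and lists were chosen with earlier results of these data known. Values in every library are given for members called in either comparison or outside the control range in both, for Srebf1, Srebf2, Insig1 and Insig2 in any case, and for the fatty acid genes; from the further lists, up to 6 called genes with the smallest p are named. Sqle and Cyp51, outside this rule, are also shown by library, chosen after their values were seen. Sex was assigned from Xist and Y-linked transcripts. Alternatives changed the pseudocount, filter, scaling, trend, covariates, the libraries, or joined all 9 libraries. No label says that a replicate number marks a shared mouse. No explanation was tested.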

Additional observations from a re-analysis of the deposited data

How the results depend on the processing

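Across 16 alternatives, the log2 fold changes of Srebf1, Scap and Lbr kept their sign in both comparisons; in double mutants Srebf1 was called in 13, Scap in 7 and Lbr in 10. In Smad4 KO, where limma called 1 gene higher and 3 lower, the counts higher were 3 (pseudocount 0.25), 0 (pseudocount 5), 2 (mean of at least 5 FPKM), 4 (quantile normalization, with 4 lower), 0 (sex) and 272 (all 9 libraries joined in 1 fit, with 179 lower), and 2 to 8 higher and 3 to 8 lower when 1 library was left out. The joined fit called 1 regulator, Srebf1 (limma adjusted p = 0.0363), and leaving out 1 library called 0 to 1 fatty acid genes (Scd2 without control 0). The sterol median in Smad4 KO was 0.44 with sex and 0.20 to 0.50 when 1 library was left out; the fatty acid median was 0.15 in the joined fit, where Scd1 was not tested, and 0.061 to 0.43 (lowest without control 2, highest without control 0).

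In double mutants the counts were 1104 higher and 1069 lower, 621 lower without a filter, and 18 to 688 higher and 12 to 898 lower when 1 library was left out: 657 and 898 without control 0, 688 and 487 without control 1, 533 and 531 without control 2, 78 and 61 without double mutant 0, 338 and 370 without double mutant 1, 18 and 12 without double mutant 2. Called regulators were 1 without a filter, without the trend or with sex, and 0 to 2 when 1 library was left out. Called sterol genes were 3 with pseudocount 0.25, a mean of at least 5 FPKM, quantile normalization or the joined fit, 4 with sex and 0 to 4 when 1 library was left out. Fatty acid genes called higher were 1 with a mean of at least 5 FPKM, quantile normalization, sex or the joined fit and 0 to 2 when 1 library was left out, and called lower 0 to 1.

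Signs changed only for genes that overlapped with controls. In Smad4 KO, Hsd17b7 was at 0.031 with sex and Ebp at 0.034 with quantile normalization. Leaving out 1 library gave -0.14 to 0.16 for Insig2, -0.31 to 0.055 for Idi1, -0.17 to 0.054 for Tm7sf2, -0.084 to 0.054 for Hsd17b7, -0.086 to 0.065 for Ebp, -0.12 to 0.12 for Sc5d, -0.10 to 0.19 for Acaca and -0.22 to 0.041 for Elovl6. In double mutants, Hsd17b7 was at 0.0011 with quantile normalization and 0.081 with sex, and Ebp at -0.0077 with sex. Leaving out 1 library gave -0.27 to 0.019 for Insig2, -0.11 to 0.25 for Idi1, -0.033 to 0.17 for Tm7sf2, -0.20 to 0.098 for Hsd17b7, -0.042 to 0.10 for Ebp, -0.010 to 0.28 for Acaca and -0.36 to 0.049 for Elovl6. The cause of these changes was not tested.

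Control and mutant libraries share numbers that the labels do not tie to a mouse or day. Deviations of same-numbered libraries correlated at -0.111, 0.223 and -0.0987 in the first table and 0.072, 0.132 and 0.0374 in the second, so they were treated as sharing only a number. With the replicate block the counts were 0 higher and 1 lower in Smad4 KO, and 732 higher and 870 lower in double mutants, with 1 regulator called. The replicate block also moved Scap to a limma adjusted p of 0.0778, Lbr to 0.0554 and Pmvk to 0.0376 in double mutants, and ended the calls of Elovl5 and Pdss1 (0.0569 to 0.0621). With 3 libraries a group and unknown read numbers, small differences between low genes such as Idi1, Acaca and Scd1 could not be resolved.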
